A study of Mus musculus with 16 samples.

Results

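Interferon-stimulated genes are the genes that cells switch on when interferon reaches its receptor. The 41 members described here were the rows of a table of RPKM values (reads scaled by transcript length and by library size) whose symbol is on a list of 41 such genes, out of 38355 genes in all, and each symbol matched 1 row. Of the members, 39 were among the 12507 genes with a mean above 1 RPKM in at least 1 group and were tested. The other 2, Ifi44 and Parp12, stayed under that level, with highest values of 0.908 and 0.641 RPKM.

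RNA-Seq was done on B-cells sorted from the spleens of KO (Mir146a-/-) and WT mice, both given as C57BL/6. KO mice lack miR-146a in every cell, so the B-cells also developed in a KO host. The 4 subsets were transitional T1 and T2 cells, which have recently left the bone marrow, and the mature marginal zone (MZ) and follicular (FO) cells that arise from them, with 2 libraries for each of the 8 groups (KO T1, WT T1, KO T2, WT T2, KO MZ, WT MZ, KO FO and WT FO). Cells were sorted from spleens of several mice pooled together, and the age of the mice used for these libraries is not given in the sources used here. Fewer cells with a transcript and less of it per cell cannot be told apart in such sorted bulk samples.

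Interferons bind receptors that signal through the kinases Jak1 and Tyk2 to ISGF3, a transcription factor complex that contains Stat2 and Irf9. ISGF3 binds the interferon-stimulated response element (ISRE) in promoters, and the proteins made from these genes detect viral nucleic acid, degrade viral RNA, block virus entry or translation, and mark proteins with the ubiquitin-like Isg15. miR-146a is a microRNA that is known to repress Irak1 and Traf6, which act downstream of Toll-like receptors.

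The promoter table of RefSeq (GRCm38.p6), which covers 250 bases before to 50 bases after a start site, held 31 of the 41 members. This is 75.6% of the members, under the 80% needed, so the check of motifs over the list is void and the counts are a description of these 31 promoters. The ISRE core GAAANNGAAA, searched on both strands, was in 16 of the 31 and in 3.99% of all 27025 genes of the table. A longer form that ends in CT, GAAANNGAAACT, overlaps the core and was in 10 of the 31 and in 0.303% of all genes. TTCCNGGAA, searched as 1 form of the gamma-activated site (GAS), was in Bst2, Gbp7 and Ifit2, 3 of the 31, and in 1.35% of all genes. Other forms of the GAS were not searched. A match is not a site of binding, and a promoter without one lacks only these letters in this window.

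The cores of 6 members are shown, chosen among members named below whose promoters were in the table and held a core. Oasl2, which passed between genotypes, and Lgals3bp, Samhd1 and Cmpk2, which were called between subsets, were in the table without a core. Of the members shown, Ifit1 did not pass between genotypes. The 30 bases printed for each, with the core of 10 bases inside, lie at chr4:156200871-156200900 on the minus strand for Isg15, chr5:120907520-120907549 on the minus strand for Oas1a and chr19:34640794-34640823 on the minus strand for Ifit1. The printed bases lie at chr8:61928024-61928053 on the plus strand for Ddx60 and chr3:142530273-142530302 on the minus strand for Gbp7. Those of Ifit3 lie at chr19:34583363-34583392 on the minus strand. All 6 members shown had their highest mean in MZ B-cells. Capitals mark the core, and each sequence is printed 5′ to 3′ on the strand where the core reads as given above.
Isg15: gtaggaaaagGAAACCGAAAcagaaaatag
Oas1a: tcgggaaatgGAAACTGAAAatctacttcc
Ifit1: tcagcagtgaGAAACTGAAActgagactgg
Ddx60: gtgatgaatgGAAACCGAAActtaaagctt
Gbp7: atggagaactGAAACTGAAActgcacacac
Ifit3: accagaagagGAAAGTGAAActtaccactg
Counted from the start site, the cores began at -72 bases in Isg15, -14 in Oas1a, -85 in Ifit1, -53 in Ddx60, -53 in Gbp7 and -156 in Ifit3. Isg15, Oas1a, Ifit1, Ddx60 and Ifit3 each held more than 1 core in the promoter.

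Matches to the seed of miR-146a were looked for because the KO mice lack this microRNA. The mature mmu-miR-146a-5p is encoded at chr11:43374435-43374456 on the minus strand (GRCm38.p6), and its seed, bases 2 to 8, is in capitals.
mmu-miR-146a-5p: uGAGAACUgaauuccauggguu
Its matches AGTTCTCA, AGTTCTC and GTTCTCA, the first of which contains the others, were found in the annotated 3′ UTRs of 9 of the 41 members (22.0%) and of 22.0% of the 10286 tested genes with such a UTR. The members were Adar, Gbp6, Ifi44, Ifit2, Rsad2, Rtp4, Stat2, Trim25 and Xaf1. The full AGTTCTCA was in 1 member, Ifit2, or 2.44% of the members, and in 4.87% of the tested genes. The sites of Ifit2 and of Gbp6 are shown, the first as the longest match and the second because Gbp6 is the only gene with a match among the 5 members that passed the test between genotypes below.
Ifit2: aattaccagccAGTTCTCAatctatggtgt
Gbp6: cattccatgacGTTCTCAgtcttacacatt
Ifit2 lies on chromosome 19 and Gbp6 on chromosome 5, and the capitals are the listed match (GRCm38, GENCODE M21). The last A of each lies outside the seed, and the Gbp6 match lacks the first A of AGTTCTC. The gene that encodes miR-146a, Mir146, had 1 read in each of the 2 WT FO libraries and 0 in the other 14, so its deletion could not be checked in these libraries.

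The steps of the RPKM values gave back whole reads, with totals of 9003343 to 26386684 reads per library. The lowest read number of a tested member was 26, for Isg15, a short gene with 26 to 428 reads per library. B-cell markers summed to 4967 to 7497 RPKM in KO and 4694 to 7380 RPKM in WT libraries, and the T1 marker Cd93 had 26.6 to 36.4 RPKM in the T1 libraries and 0.288 to 0.356 RPKM in the MZ libraries. Neutrophil markers, 7 in all, summed to 2.67 to 66.1 RPKM in KO and 0.78 to 58.2 RPKM in WT libraries. Their highest values in a library were 29.8 RPKM for S100a9, 27.2 RPKM for S100a8 and 7.54 RPKM for Ngp. Camp and Ltf reached 5.13 and 2.05 RPKM, and Elane and Mpo, which define the precursors of neutrophils, stayed under 1 RPKM. Macrophage and monocyte markers, 13 in all, summed to 21.1 to 135 RPKM in KO and 16.5 to 109.8 RPKM in WT libraries. Of these, Mpeg1 reached 107.8 RPKM, Lyz2 48.7 RPKM and Hmox1 10.1 RPKM in a library. Fcgr1 was under 1 RPKM in every library and at 0 in some, and the other markers reached 1.41 to 9.77 RPKM. Immediate early genes, which respond to handling of cells, summed to 288 to 3169 RPKM in KO and 1208 to 5043 RPKM in WT libraries, and the KO replicate 1 libraries were the lowest of their subset. The authors kept only uniquely aligned reads, so members with near-identical copies are uncertain. All 100-base stretches of the longest transcript were compared with the transcripts of other genes, and 98.8% were shared for Gbp6, 40.9% for Oas1a (with Oas1g), 31.7% for Ifit3 (with Ifit3b), 20.9% for Herc6, 11.2% for Rtp4 and 10.2% for Gbp7. Same-strand exons of another gene overlap those of Gbp6 (Gbp10 and another entry named Gbp6), Herc6 (Gm45193), Rtp4 (Gm45338) and Gbp7 (Gm43802). There the doubt is which gene a read was counted for, not a copy elsewhere. The identifier of the Gbp6 row is named Gm43302 in GENCODE M21, a locus that spans Gbp6 and Gbp10. Exons of Parp9 and Dtx3l overlap by 458 bases and those of Adar and Chrnb2 by 1365 bases on opposite strands, which counting without strand cannot tell apart.

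The first comparison asked whether interferon-stimulated genes differed between KO and WT B-cells of the same subset. Most members lay somewhat higher in KO than in WT in every subset, and the differences were small. In T1, 38 of the 39 tested members had a log2 difference above 0 with a median of 0.30, and in T2 33 of 39 with a median of 0.17. In MZ there were 38 of 39 with a median of 0.19, and in FO 39 of 39 with a median of 0.26. Over all tested genes the medians were 0.00, 0.01, 0.03 and 0.02, and 51.2%, 53.8%, 57.7% and 57.8% of them were above 0, in T1, T2, MZ and FO. The sign of some members depended on single libraries. It changed for 6 members in T1 without KO T1 replicate 1 and for 10 in T2 without KO T2 replicate 1. In MZ, 7 changed without KO MZ replicate 2, and in FO, 4 changed without KO FO replicate 2.

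No member passed an adjusted p of 0.05 within a subset by limma, and so 0 of 39 were called in each. Called here means an adjusted p under 0.05 together with a log2 difference beyond 1, and the share of all tested genes that reached it was 0.04% for T1, 0.048% for T2, 0.064% for MZ and 0.032% for FO. With 2 libraries a group, these p-values measure the spread between libraries. The study calls them biological replicates, and the labels do not say whether the libraries of a group came from separate pools of mice. An unadjusted p under 0.05 was reached by 20, 7, 4 and 13 members in T1, T2, MZ and FO, and by 3.51%, 3.37%, 1.65% and 0.919% of all tested genes. With limma-voom on the recovered reads, 0 members passed within a subset as well. Both KO libraries lay above both WT libraries for 27 of 39 members in T1, where 10.7% of all tested genes did so, and for 14 of 39 in T2, against 12.7% of all tested genes. In MZ it was 23 of 39 members, against 17.6% of all tested genes, and in FO 29 of 39, against 17%. The members are not independent of each other, since they respond to the same signal and share libraries. The order was the other way, with both KO libraries below both WT libraries, for 1 member in 1 subset, Mx2 in T2.

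Isg15 (chr4:156199424-156200818, GRCm38), which encodes the ubiquitin-like protein that is attached to other proteins after interferon, was higher in both KO libraries than in both WT libraries of each of the 4 subsets. Isg15 had 8.76 and 12.8 RPKM in KO T1, against 5.69 and 6.28 RPKM in WT T1, and 5.40 and 7.81 RPKM in KO T2, against 3.82 and 3.88 RPKM in WT T2. For Isg15 the MZ values were 28 and 32.2 RPKM in KO, against 26.2 and 24.9 RPKM in WT, and the FO values were 9.29 and 7.85 RPKM in KO, against 5.82 and 4.85 RPKM in WT. The difference in log2(RPKM + 0.5) averaged over the subsets was 0.58 ± 0.10 (SE; adjusted p = 0.0443 by limma). The level of Isg15 in the MZ libraries was above that in every other library, whatever the genotype.

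The OAS family makes 2′-5′ oligoadenylate, which activates the RNA-degrading RNase L. Of its 5 members here, 3 passed the test over the 4 subsets, and all 5 had a difference above 0. Oas2 had 27.3 and 22.8 RPKM in KO T1, against 18 and 12.5 RPKM in WT T1, and 12.3 and 12.5 RPKM in KO T2, against 9.53 and 10.7 RPKM in WT T2. For Oas2 the MZ values were 22.9 and 26.4 RPKM in KO, against 17.6 and 17.7 RPKM in WT, and the FO values were 9.08 and 11.8 RPKM in KO, against 5.90 and 6.38 RPKM in WT. The KO and WT libraries did not overlap in any subset for Oas2 (chr5:120730333-120749853), and the averaged difference was 0.54 ± 0.09 (SE; adjusted p = 0.0381 by limma). Oas1a had 11.4 and 14.7 RPKM in KO T1, against 7.70 and 7.86 RPKM in WT T1, and 8.92 and 10.5 RPKM in KO T2, against 6.36 and 5.96 RPKM in WT T2. For Oas1a the MZ values were 10.8 and 15.7 RPKM in KO, against 10.2 and 11.3 RPKM in WT, and the FO values were 7.15 and 9.35 RPKM in KO, against 5.25 and 4.64 RPKM in WT. For Oas1a (chr5:120896256-120907521) the genotypes overlapped in MZ, where 1 KO library lay between the WT libraries, and the averaged difference was 0.56 ± 0.09 (SE; adjusted p = 0.0443 by limma). Oasl2 (chr5:114896936-114912234) encodes a relative of the OAS enzymes. Oasl2 had 9.37 and 8.26 RPKM in KO T1, against 5.82 and 4.12 RPKM in WT T1, and 8.03 and 6.27 RPKM in KO T2, against 5.24 and 5.20 RPKM in WT T2. For Oasl2 the MZ values were 4.43 and 4.62 RPKM in KO, against 3.39 and 3.01 RPKM in WT, and the FO values were 5.78 and 6.0 RPKM in KO, against 4.70 and 4.20 RPKM in WT. The genotypes did not overlap in any subset for Oasl2, with a difference of 0.50 ± 0.08 (SE; adjusted p = 0.0381 by limma). Oasl1 and Oas3 did not pass, with 0.10 and 0.40.

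Guanylate-binding proteins are large GTPases that attack the vacuoles and membranes of intracellular pathogens. All 4 members were above 0 over the subsets, and 1 passed. Gbp6 had 4.13 and 3.69 RPKM in KO T1, against 1.83 and 2.07 RPKM in WT T1, and 4.67 and 2.80 RPKM in KO T2, against 2.37 and 1.41 RPKM in WT T2. For Gbp6 the MZ values were 5.29 and 5.76 RPKM in KO, against 3.75 and 3.35 RPKM in WT, and the FO values were 3.09 and 2.76 RPKM in KO, against 1.73 and 1.13 RPKM in WT. The KO libraries of Gbp6 (chr5:105214907-105293695) lay above the WT libraries in each subset, and its difference of 0.77 ± 0.12 (SE; adjusted p = 0.0381 by limma) was the largest of all members tested over the subsets. The other differences were 0.27 for Gbp2, 0.20 for Gbp3 and 0.40 for Gbp7, and none of the 3 passed.

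**Figure D1:**
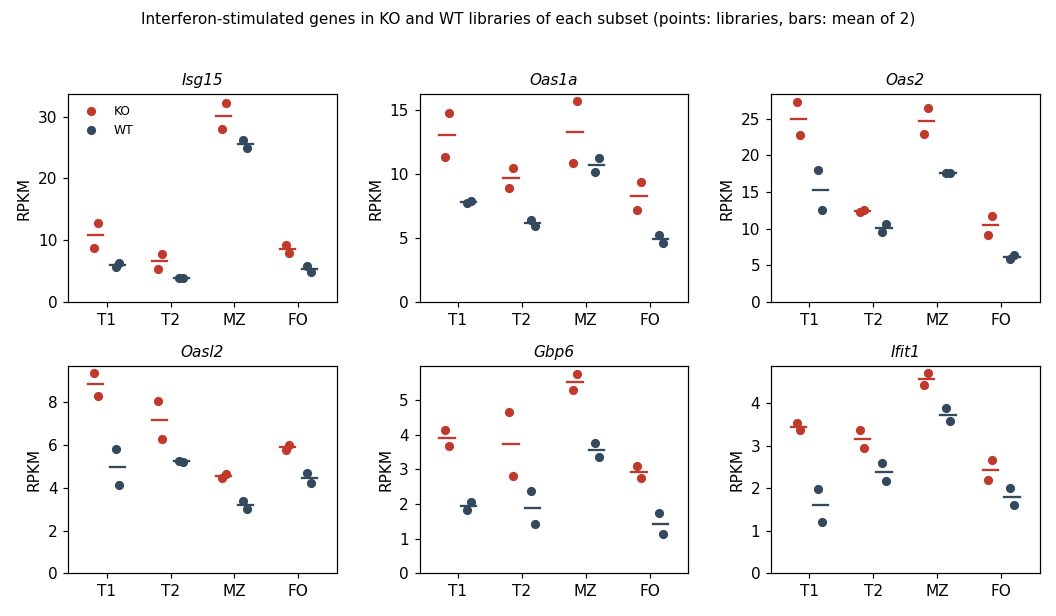
Level in RPKM (vertical axes, starting at 0) of 6 interferon-stimulated genes in T1, T2, MZ and FO B-cells, with KO left of WT; points are libraries and bars the mean of 2. Isg15, Oas2, Oasl2, Gbp6 and Ifit1 have both KO libraries above both WT libraries in all 4 subsets, and Oas1a in T1, T2 and FO.

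IFIT proteins bind foreign RNA and block its translation. Their 3 genes lie together on chromosome 19, and all were above 0 over the subsets with differences of 0.47 for Ifit1, 0.26 for Ifit2 and 0.35 for Ifit3, without passing. Ifit1 had 3.54 and 3.36 RPKM in KO T1, against 1.98 and 1.22 RPKM in WT T1, and 3.39 and 2.95 RPKM in KO T2, against 2.59 and 2.18 RPKM in WT T2. For Ifit1 the MZ values were 4.43 and 4.71 RPKM in KO, against 3.89 and 3.58 RPKM in WT, and the FO values were 2.21 and 2.67 RPKM in KO, against 2.01 and 1.61 RPKM in WT. Ifit1 had the smallest p of the members in T1, with a difference of 0.94 ± 0.18 (SE; adjusted p = 0.421 by limma). Its libraries held 45 to 220 reads.

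Among nucleic acid sensors, Dhx58 (LGP2), a helicase that works with the sensors encoded by Ddx58 and Ifih1, had 1 of the 4 smallest p in T2. Dhx58 had 14.9 and 13.4 RPKM in KO T1, against 12.2 and 12 RPKM in WT T1, and 12.1 and 12.8 RPKM in KO T2, against 9.78 and 10.03 RPKM in WT T2. For Dhx58 the MZ values were 15.1 and 17.6 RPKM in KO, against 16.1 and 14.3 RPKM in WT, and the FO values were 13.3 and 13.3 RPKM in KO, against 11 and 10.6 RPKM in WT. The difference was 0.32 ± 0.10 (SE; adjusted p = 1 by limma) in T2, and KO and WT overlapped in MZ. Xaf1, which encodes a factor that favours cell death, had 1 of the 4 smallest p in MZ. Xaf1 had 15.7 and 13.8 RPKM in KO T1, against 11.8 and 11.7 RPKM in WT T1, and 13.1 and 10.3 RPKM in KO T2, against 11 and 9.64 RPKM in WT T2. For Xaf1 the MZ values were 13.9 and 13.2 RPKM in KO, against 10.9 and 11 RPKM in WT, and the FO values were 8.81 and 9.78 RPKM in KO, against 7.01 and 8.22 RPKM in WT. Its libraries of the 2 genotypes did not overlap in MZ, where the difference was 0.29 ± 0.13 (SE; adjusted p = 1 by limma).

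Ifi44, of little known function, lay under the level for testing, yet its KO libraries were above its WT libraries in each subset. Ifi44 had 0.908 and 0.543 RPKM in KO T1, against 0.143 and 0.106 RPKM in WT T1, and 0.463 and 0.349 RPKM in KO T2, against 0.218 and 0.156 RPKM in WT T2. For Ifi44 the MZ values were 0.727 and 0.549 RPKM in KO, against 0.235 and 0.190 RPKM in WT, and the FO values were 0.176 and 0.257 RPKM in KO, against 0.0558 and 0.0837 RPKM in WT. Its libraries held 9 to 62 reads. Without the filter on low values, Ifi44 passed over the 4 subsets with a difference of 0.59 ± 0.07 (SE; adjusted p = 0.0101 by limma, over 23194 genes), and Parp12 had 0.15 ± 0.10 (SE; adjusted p = 0.822).

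Over the 4 subsets together, 38 of 39 members were above 0 in KO against WT with a median of 0.23, beside a median of 0.02 over all tested genes. Gbp6, Isg15, Oas1a, Oas2 and Oasl2 passed and were higher in KO, 5 of 39 members, and 0 were lower. Of all tested genes 0.168% passed and were higher and 0.064% passed and were lower, and 0.072% were called, with 0 members among them. Trim25, a ubiquitin ligase that acts on the sensor encoded by Ddx58, was the only member not above 0, with a difference of -0.00467 ± 0.06 (SE; adjusted p = 0.991 by limma). Rtp4, a chaperone of receptors, had 0.59 ± 0.11 (SE; adjusted p = 0.0985 by limma), a difference above those of 4 members that passed. Of the 5 that passed, Gbp6, Oasl2, Oas2 and Oas1a lie on chromosome 5 and Isg15 on chromosome 4. The members on chromosome 11, which carries Mir146, are Xaf1, Trim25, Dhx58, Ifi35 and Lgals3bp. Positions of genes outside the list, such as Irgm1 below, were not compared. Effects of the targeted locus on genes near it were not tested. Leaving out each library in turn left 0 to 3 members past the threshold, and leaving out the T1 libraries left 0, whereas the median stayed between 0.21 and 0.27 in all these fits. Without the KO replicate 1 libraries 2 members passed, Isg15 and Oas1a, and the median was 0.22. Libraries of a genotype with the same replicate number deviated together, with correlations of 0.19 to 0.44 between the KO subsets and 0.08 to 0.45 between the WT subsets, so the subsets are not independent repeats. With the replicate number as a block, Isg15 and Oas2 missed the threshold (adjusted p = 0.0516 for each by limma), and Gbp6, Oas1a, Oasl2 and Ifit3 passed. Oas2 alone passed with median-ratio scaling or with quantile normalization.

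By role, the medians over the subsets were 0.50 for the OAS family, 0.35 for IFIT proteins, 0.34 for Isg15 conjugation and ubiquitin ligases and 0.33 for guanylate-binding proteins. They were 0.26 for tetherin and other effectors, 0.23 for PARP proteins with Dtx3l and 0.22 for nucleic acid sensors. The lowest were 0.17 for nucleotide enzymes, 0.13 for the Mx GTPases and 0.08 for Stat2 and Sp100. These differences between roles were not tested.

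Whether the KO against WT difference itself varied among the subsets was tested with an interaction term. No member passed (0 of 39, by limma), and 0.024% of all tested genes did. The genotype difference in the change from T2 to MZ also had 0 members past the threshold, beside 0.008% of all tested genes, with values of the members between -0.46 and 0.35. The numbers of members with an unadjusted p under 0.05 in these 2 tests were 0 and 0.

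Other measures also moved with the genotype. All 5 tested neutrophil markers were above 0 in KO against WT in each subset, with medians of 1.83 and 1.86 in the transitional T1 and T2 subsets, 1.43 among MZ and 0.71 among FO libraries. Of 16 tested immediate early genes, 0 were above 0 in any subset, and their median over the subsets was -1.44. That median was -0.13, with 2 of 16 above 0, without the KO replicate 1 libraries, and the summed level of these genes was higher in KO replicate 2 than in WT replicate 2 of each subset. T and NK cell markers were above 0 for 8 of 8 over the subsets (median 0.36), and they summed to 3.74 to 27.1 RPKM in KO and 1.45 to 23.8 RPKM in WT libraries. Plasma cell markers were above 0 for 5 of 6 in T1 (median 0.51), with sums of 1282 and 4178 RPKM in KO T1, against 687 and 3061 RPKM in WT T1. Macrophage and monocyte markers were above 0 for 9 of 11 over the subsets (median 0.07), and cell cycle genes for 16 of 18 (median 0.25). Without the KO replicate 1 libraries the medians over the subsets were 1.97 for neutrophil, 0.75 for T and NK cell, 0.69 for macrophage and monocyte and 0.57 for cell cycle genes. None of these marker genes passed the test between genotypes, and their part in the member differences was not tested.

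**Figure D2:**
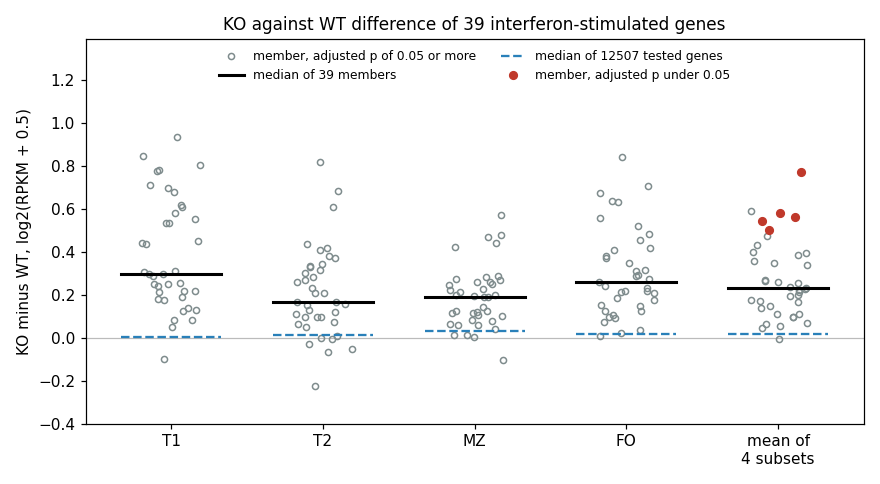
KO minus WT difference in log2(RPKM + 0.5) (vertical axis) of the 39 tested members in T1, T2, MZ and FO and averaged over the 4 subsets; each point is a member, filled where the adjusted p is under 0.05, the solid bar is the median of the members and the dashed bar the median of 12507 tested genes. The member medians are 0.30, 0.17, 0.19, 0.26 and 0.23, and filled points occur only in the average over subsets, 5 in all.

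The second set of comparisons asked how the members differ between the subsets, with KO and WT averaged. Most members differed among the subsets. A difference of any kind among the 4 subsets passed for 35 of 39 members, beside 64.2% of all tested genes, and Adar, Dtx3l, Ifi35 and Usp18 did not pass. By mean RPKM of 4 libraries, 20 members were highest in T1, 18 in MZ and 1, Oas3, in FO, and 22 were lowest in FO, 9 in MZ, 6 in T1 and 2 in T2. Plasma cell markers were also highest in T1, where the 6 summed to 687 to 4178 RPKM, beside 91.5 to 223 RPKM in the libraries of the other subsets, and most of the sum was Igj, the joining chain of secreted antibody. Their part in the differences from T1 was not tested.

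**Figure D3:**
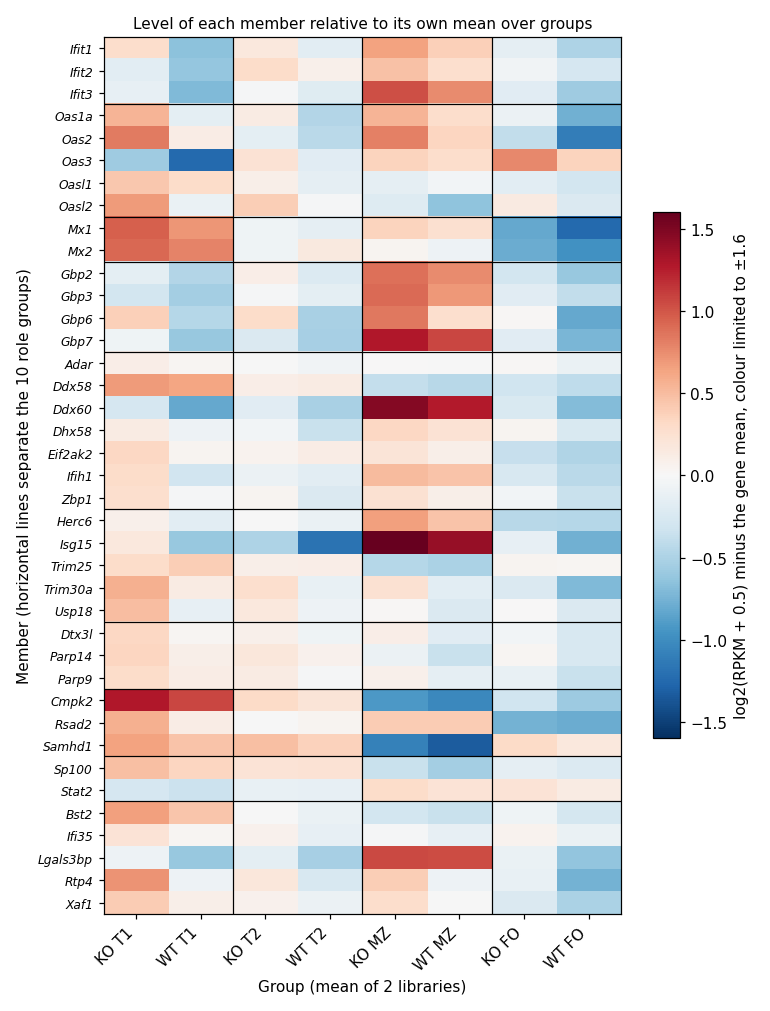
Level of each of the 39 tested members (rows, grouped by role) in the 8 groups (columns, KO left of WT within each subset), as the mean log2(RPKM + 0.5) of 2 libraries minus the mean of the gene over the groups; red is above and blue below the gene mean. Isg15, Ddx60, Gbp7 and Lgals3bp are darkest red in the MZ columns, Samhd1 and Cmpk2 are blue there, and Mx1 and Mx2 are red in T1 and blue in FO.

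MZ B-cells held the highest means of a group of members that includes Isg15, the guanylate-binding proteins and the sensors Ddx60, Dhx58, Ifih1 and Zbp1. Of the same role, Ddx58, Adar and Eif2ak2 were highest in T1. Ddx58 had its lowest mean in MZ (27.5 RPKM, against 58.6 RPKM in T1). Against T2, 17 of 39 members passed and were higher in MZ (all tested genes 22.8%) and 7 were lower (all tested genes 19.6%). Against FO, 23 were higher in MZ (all tested genes 19.9%) and 4 were lower (all tested genes 17.4%). Against T1, 15 were higher in MZ (all tested genes 32.5%) and 12 were lower (all tested genes 20.7%). With the fold criterion, 7 members were called in MZ against T2 (all tested genes 10.8%), 12 in MZ against FO (9.2%) and 11 in MZ against T1 (17.4%). The 3 comparisons share the MZ libraries. In MZ against FO, Isg15, Ddx60, Gbp7, Lgals3bp, Mx1, Oas2, Ifit3, Gbp2, Rsad2, Gbp3 and Herc6 were called higher and Samhd1 lower, and in MZ against T1, Ddx60, Isg15, Gbp7, Lgals3bp, Ifit3, Gbp3, Oas3 and Gbp2 were called higher and Ddx58, Samhd1 and Cmpk2 lower. In MZ against T2, Isg15, Ddx60, Gbp7, Lgals3bp and Ifit3 were called higher and Samhd1 and Cmpk2 lower.

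Isg15, whose values are given above, had the highest difference of the members in MZ against T2 and in MZ against FO. It was 2.35 ± 0.14 (SE; adjusted p = 4.57e-07 by limma) in MZ against T2, 1.96 against FO and 1.73 against T1. Ddx60, a helicase of the antiviral response, was called in all 3 comparisons. Ddx60 had 2.96 and 2.45 RPKM in KO T1, against 2.07 and 1.34 RPKM in WT T1, and 3.35 and 2.48 RPKM in KO T2, against 2.76 and 1.73 RPKM in WT T2. For Ddx60 the MZ values were 11 and 9.34 RPKM in KO, against 9.58 and 7.98 RPKM in WT, and the FO values were 2.56 and 2.96 RPKM in KO, against 1.91 and 1.84 RPKM in WT. Every MZ library of Ddx60 was above every library of the other subsets, and the difference was 1.71 ± 0.16 (SE; adjusted p = 1.08e-05 by limma) in MZ against T2 and 1.83 against FO. Gbp7 showed the same order. Gbp7 had 11.5 and 8.62 RPKM in KO T1, against 6.82 and 6.59 RPKM in WT T1, and 10.9 and 7.20 RPKM in KO T2, against 7.80 and 6.41 RPKM in WT T2. For Gbp7 the MZ values were 29.6 and 22.9 RPKM in KO, against 21.5 and 23.8 RPKM in WT, and the FO values were 9.74 and 8.71 RPKM in KO, against 5.84 and 6.35 RPKM in WT. Its difference was 1.56 ± 0.14 (SE; adjusted p = 9.02e-06 by limma) in MZ against T2.

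Lgals3bp, a secreted galectin-binding glycoprotein, was also called in all 3. Lgals3bp had 9.15 and 13.5 RPKM in KO T1, against 6.69 and 8.49 RPKM in WT T1, and 9.91 and 11.1 RPKM in KO T2, against 8.08 and 7.89 RPKM in WT T2. For Lgals3bp the MZ values were 21.2 and 29.6 RPKM in KO, against 26 and 23.7 RPKM in WT, and the FO values were 10.7 and 11 RPKM in KO, against 7.52 and 7.34 RPKM in WT. The MZ libraries did not overlap with any other, and the difference was 1.40 ± 0.13 (SE; adjusted p = 1.38e-05 by limma) in MZ against T2. Ifit3 had the highest mean of the IFIT genes. Ifit3 had 12.8 and 11.7 RPKM in KO T1, against 9.23 and 6.92 RPKM in WT T1, and 13.7 and 12.6 RPKM in KO T2, against 13.2 and 10.3 RPKM in WT T2. For Ifit3 the MZ values were 29.2 and 26.6 RPKM in KO, against 24.4 and 21.8 RPKM in WT, and the FO values were 11.5 and 12 RPKM in KO, against 9.95 and 7.94 RPKM in WT. Its difference was 1.00 ± 0.11 (SE; adjusted p = 4.21e-05 by limma) in MZ against T2, at the edge of the fold criterion, and 1.31 in MZ against T1. Gbp3 had the highest mean of the guanylate-binding proteins. Gbp3 had 21.4 and 21.1 RPKM in KO T1, against 16.6 and 19.1 RPKM in WT T1, and 30.3 and 22 RPKM in KO T2, against 26.4 and 21 RPKM in WT T2. For Gbp3 the MZ values were 51.6 and 48.1 RPKM in KO, against 40.5 and 45.6 RPKM in WT, and the FO values were 22 and 24.1 RPKM in KO, against 18.8 and 21 RPKM in WT. It was called in MZ against T1 (1.23) and against FO (1.095), and it passed against T2 (0.89). All 4 guanylate-binding members passed and were higher in MZ in each of the 3 comparisons.

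Samhd1 and Cmpk2 went the other way. Samhd1, which breaks down the nucleotides needed for reverse transcription, had the highest mean of all members, 106.8 RPKM. Samhd1 had 178 and 127 RPKM in KO T1, against 132 and 131 RPKM in WT T1, and 153 and 119 RPKM in KO T2, against 124 and 124 RPKM in WT T2. For Samhd1 the MZ values were 46.4 and 43.7 RPKM in KO, against 34.3 and 41.7 RPKM in WT, and the FO values were 115 and 123 RPKM in KO, against 101 and 115 RPKM in WT. All 4 MZ libraries lay below every library of the other subsets, and the difference was -1.63 ± 0.12 (SE; adjusted p = 1.89e-06 by limma) in MZ against T2, -1.45 against FO and -1.76 against T1. Cmpk2, a nucleotide kinase whose gene neighbours Rsad2 on chromosome 12, was lowest in MZ and highest in T1. Cmpk2 had 35.5 and 25 RPKM in KO T1, against 27.9 and 23.6 RPKM in WT T1, and 17.8 and 12.5 RPKM in KO T2, against 16.1 and 12 RPKM in WT T2. For Cmpk2 the MZ values were 5.77 and 6.54 RPKM in KO, against 5.77 and 5.49 RPKM in WT, and the FO values were 8.84 and 10.2 RPKM in KO, against 8.21 and 7.49 RPKM in WT. Its difference was -1.23 ± 0.14 (SE; adjusted p = 6.51e-05 by limma) in MZ against T2 and -2.14 against T1. Rsad2 (viperin), its neighbour, had a higher level in MZ than in FO, so the pair did not keep 1 order. Rsad2 had 5.23 and 5.10 RPKM in KO T1, against 4.55 and 2.91 RPKM in WT T1, and 3.94 and 2.75 RPKM in KO T2, against 4.80 and 2.43 RPKM in WT T2. For Rsad2 the MZ values were 4.36 and 4.77 RPKM in KO, against 4.63 and 4.46 RPKM in WT, and the FO values were 1.38 and 2.23 RPKM in KO, against 1.99 and 1.46 RPKM in WT. The difference of Rsad2 in MZ against FO was 1.18 ± 0.21 (SE; adjusted p = 0.00126 by limma), where Cmpk2 had -0.52.

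**Figure D4:**
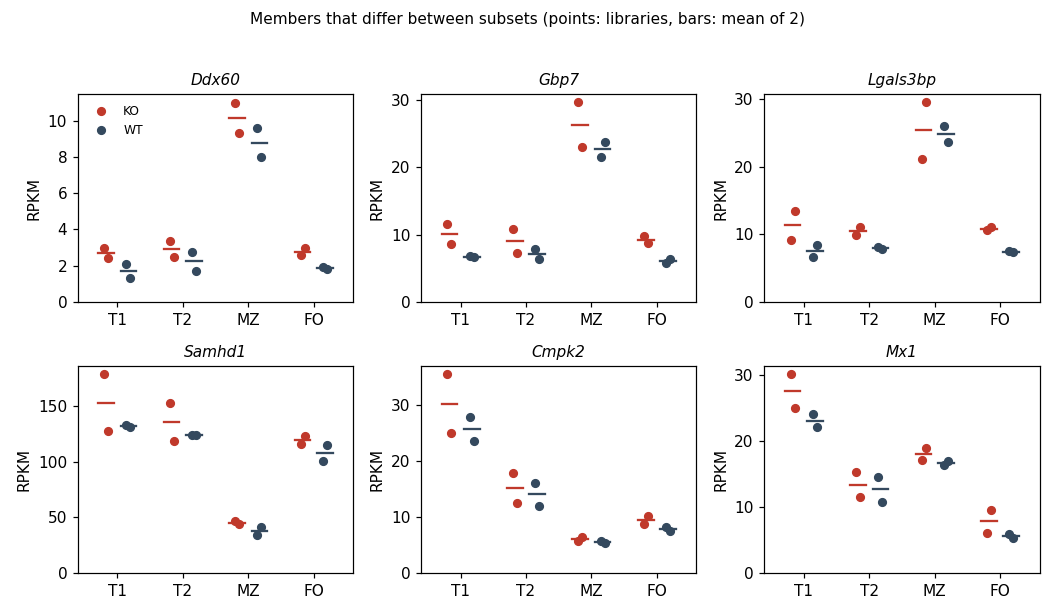
Level in RPKM (vertical axes, starting at 0) of 6 members in T1, T2, MZ and FO B-cells, with KO left of WT; points are libraries and bars the mean of 2. Ddx60, Gbp7 and Lgals3bp are highest in MZ in both genotypes, Samhd1 and Cmpk2 are lowest there, and Mx1 is highest in T1 and lowest in FO.

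FO B-cells were the lowest in most members. Against T1, 20 of 39 members passed and were lower in FO (all tested genes 16.3%) and 2 were higher (all tested genes 25.4%), with 7 called in all (all tested genes 9.5%). The called members were Oas3, higher in FO, and Mx1, Mx2, Cmpk2, Oas2, Rsad2 and Ddx58, lower in FO. Against T2, 11 passed and were lower in FO (all tested genes 5.04%), 0 were higher (all tested genes 4.77%) and 0 were called (all tested genes 1.14%). The 11 were Cmpk2, Ddx58, Eif2ak2, Gbp2, Mx1, Mx2, Oas2, Rsad2, Sp100, Trim30a and Xaf1. This count depended on single libraries: it was 0 without KO T2 replicate 1, KO FO replicate 1 or WT FO replicate 1, 2 without WT T2 replicate 1, 3 without WT FO replicate 2 and 5 without either WT MZ library. Without the KO replicate 1 libraries 0 of all tested genes passed.

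The Mx GTPases, which trap viral nucleoproteins, had the most negative differences of the members in FO against T1. Mx1 had 30.1 and 25 RPKM in KO T1, against 24.1 and 22.1 RPKM in WT T1, and 15.3 and 11.5 RPKM in KO T2, against 14.6 and 10.9 RPKM in WT T2. For Mx1 the MZ values were 17.1 and 19 RPKM in KO, against 16.4 and 17 RPKM in WT, and the FO values were 6.12 and 9.61 RPKM in KO, against 5.92 and 5.32 RPKM in WT. The 4 FO libraries of Mx1 lay below all others, and the difference was -1.86 ± 0.15 (SE; adjusted p = 6.16e-06 by limma) in FO against T1 and -0.92 ± 0.15 (SE; adjusted p = 0.0131 by limma) in FO against T2. Mx2 had 19.1 and 13.4 RPKM in KO T1, against 15.8 and 13.5 RPKM in WT T1, and 7.78 and 7.83 RPKM in KO T2, against 8.55 and 9.93 RPKM in WT T2. For Mx2 the MZ values were 8.21 and 8.87 RPKM in KO, against 8.69 and 6.96 RPKM in WT, and the FO values were 3.55 and 5.79 RPKM in KO, against 3.95 and 3.93 RPKM in WT. For Mx2, which the annotation lists as a polymorphic pseudogene, the difference was -1.74 ± 0.15 (SE; adjusted p = 1.1e-05 by limma) in FO against T1 and -0.92 ± 0.15 (SE; adjusted p = 0.0131 by limma) in FO against T2. Mx1 was higher in MZ than in FO (1.34) and lower in MZ than in T1 (-0.52).

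Eif2ak2 (PKR), a kinase that stops translation when it binds double-stranded RNA, was among the 4 members with the smallest p in FO against T2. Eif2ak2 had 20.9 and 18 RPKM in KO T1, against 16.1 and 15.5 RPKM in WT T1, and 18.7 and 13.7 RPKM in KO T2, against 17.3 and 16.2 RPKM in WT T2. For Eif2ak2 the MZ values were 18.4 and 17.3 RPKM in KO, against 16.5 and 16.2 RPKM in WT, and the FO values were 10.9 and 12.6 RPKM in KO, against 10.3 and 11.5 RPKM in WT. The FO libraries lay below all others, with a difference of -0.51 ± 0.10 (SE; adjusted p = 0.0171 by limma). Ddx58 (RIG-I), a sensor of viral RNA, was lower in the later subsets than in T1. Ddx58 had 67.6 and 51.9 RPKM in KO T1, against 60.6 and 54.2 RPKM in WT T1, and 45.3 and 34.6 RPKM in KO T2, against 42.1 and 38.7 RPKM in WT T2. For Ddx58 the MZ values were 28.4 and 27.8 RPKM in KO, against 26.5 and 27.5 RPKM in WT, and the FO values were 27.6 and 31.6 RPKM in KO, against 27 and 28.1 RPKM in WT. Its difference was -1.02 ± 0.10 (SE; adjusted p = 2.96e-05 by limma) in FO against T1 and -1.07 in MZ against T1, both close to the fold criterion. Oas3 was lowest in T1. Oas3 had 1.90 and 1.83 RPKM in KO T1, against 1.11 and 0.853 RPKM in WT T1, and 2.85 and 4.59 RPKM in KO T2, against 2.12 and 3.13 RPKM in WT T2. For Oas3 the MZ values were 3.03 and 5.21 RPKM in KO, against 3.96 and 3.54 RPKM in WT, and the FO values were 5.28 and 5.68 RPKM in KO, against 4.30 and 3.71 RPKM in WT. It was higher in FO than in T1 by 1.47 ± 0.18 (SE) and higher in MZ than in T1 by 1.22, whereas Oas2 was lower in FO than in T1 (-1.23) and higher in MZ than in FO (1.33).

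Between the transitional stages the differences were smaller. In T2 against T1, 3 of 39 members passed and were higher (all tested genes 16%), 8 were lower (all tested genes 9.94%) and 0 were called (all tested genes 5.43%). Oas3 (0.93), Ifit2 (0.58) and Gbp3 (0.33) were higher in T2. Mx1 (-0.93), Cmpk2 (-0.92), Mx2 (-0.81) and Oas2 (-0.77) had the smallest p and were lower in T2, and Isg15, Bst2, Ddx58 and Dhx58 were also lower.

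The members with the highest mean in the remaining roles followed other orders. Sp100, a component of nuclear bodies, had the second highest mean of the members after Samhd1. Sp100 had 158 and 126 RPKM in KO T1, against 134 and 125 RPKM in WT T1, and 136 and 104 RPKM in KO T2, against 124 and 114 RPKM in WT T2. For Sp100 the MZ values were 85.3 and 73.7 RPKM in KO, against 66.1 and 72.5 RPKM in WT, and the FO values were 88 and 95.3 RPKM in KO, against 82.8 and 91.4 RPKM in WT. It was lower in MZ than in T2 (-0.68) and in T1 (-0.86). Trim30a, a ubiquitin ligase of the TRIM family, had its lowest mean in FO. Trim30a had 118 and 98.8 RPKM in KO T1, against 84.2 and 75.2 RPKM in WT T1, and 102 and 74.9 RPKM in KO T2, against 78.2 and 57.1 RPKM in WT T2. For Trim30a the MZ values were 88 and 84 RPKM in KO, against 60.8 and 67.6 RPKM in WT, and the FO values were 53.1 and 71.8 RPKM in KO, against 40.9 and 47.4 RPKM in WT. Both KO libraries of Trim30a lay above both WT libraries in T1, MZ and FO but not in T2, and its difference over the subsets was 0.43 ± 0.10 (SE; adjusted p = 0.22 by limma).

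Bst2 (tetherin), which holds budding virus on the cell surface, was highest in T1. Bst2 had 50.5 and 63.7 RPKM in KO T1, against 53.1 and 44.7 RPKM in WT T1, and 31.5 and 40.1 RPKM in KO T2, against 31.3 and 35.4 RPKM in WT T2. For Bst2 the MZ values were 25.1 and 33.8 RPKM in KO, against 29.3 and 26.4 RPKM in WT, and the FO values were 33.3 and 34.9 RPKM in KO, against 30.1 and 28.5 RPKM in WT. It was lower in T2 than in T1 (-0.61). Parp14, a mono-ADP-ribosyltransferase, had its highest mean in T1. Parp14 had 44.3 and 33 RPKM in KO T1, against 33.5 and 30.8 RPKM in WT T1, and 39.2 and 29.9 RPKM in KO T2, against 31.2 and 32 RPKM in WT T2. For Parp14 the MZ values were 28.3 and 28 RPKM in KO, against 22.6 and 24.3 RPKM in WT, and the FO values were 30.4 and 31 RPKM in KO, against 24 and 26 RPKM in WT. It was lower in MZ than in T2 (-0.35) and in T1 (-0.44). Adar, the enzyme that edits adenosine in double-stranded RNA, was the steadiest member. Adar had 45 and 46.3 RPKM in KO T1, against 45.2 and 41.1 RPKM in WT T1, and 42.1 and 42.1 RPKM in KO T2, against 39.4 and 41.9 RPKM in WT T2. For Adar the MZ values were 40.3 and 44.9 RPKM in KO, against 42.9 and 41.2 RPKM in WT, and the FO values were 43.7 and 42.1 RPKM in KO, against 40.3 and 38.3 RPKM in WT. All 16 libraries of Adar lay between 38.3 and 46.3 RPKM, and no subset or genotype comparison passed.

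The remaining members are given by their mean over the 4 libraries of each subset (± SD, n = 4, KO and WT together). Gbp2 averaged 10.1 ± 1.58 RPKM in T1, 12.2 ± 2.12 RPKM in T2, 22.5 ± 1.28 RPKM in MZ and 9.11 ± 1.34 RPKM in FO. Ifit2 averaged 5.67 ± 1.30 RPKM in T1, 8.62 ± 1.06 RPKM in T2, 9.83 ± 0.946 RPKM in MZ and 6.70 ± 1.11 RPKM in FO, and it was the IFIT gene that passed and was higher in T2 than in T1. Both had their highest mean in MZ. Oasl1, a relative of Oasl2, averaged 17.8 ± 3.29 RPKM in T1, 13.4 ± 1.54 RPKM in T2, 12.8 ± 2.16 RPKM in MZ and 11.5 ± 1.21 RPKM in FO, with the highest mean in T1. Of the sensors, Ifih1 (MDA5), which detects long double-stranded RNA, averaged 1.19 ± 0.409 RPKM in T1, 1.04 ± 0.261 RPKM in T2, 1.82 ± 0.119 RPKM in MZ and 0.815 ± 0.103 RPKM in FO. Zbp1, a sensor of Z-form nucleic acid, averaged 19.7 ± 2.72 RPKM in T1, 16.8 ± 1.91 RPKM in T2, 20.2 ± 2.04 RPKM in MZ and 15.6 ± 2.27 RPKM in FO. Both passed and were higher in MZ than in T2, by 0.61 for Ifih1 and 0.26 for Zbp1.

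Herc6, the ligase that attaches Isg15 in mice, averaged 10.9 ± 1.35 RPKM in T1, 10.7 ± 1.01 RPKM in T2, 16.7 ± 1.65 RPKM in MZ and 8.11 ± 1.35 RPKM in FO. Usp18, the protease that removes Isg15 and also dampens receptor signalling, averaged 10.4 ± 2.86 RPKM in T1, 9.19 ± 1.06 RPKM in T2, 8.25 ± 1.39 RPKM in MZ and 8.22 ± 1.44 RPKM in FO. Herc6 was higher in MZ than in FO by 1.01, while Usp18 did not pass in any comparison of subsets. Trim25 averaged 60.4 ± 7.46 RPKM in T1, 50.6 ± 1.13 RPKM in T2, 33.6 ± 1.04 RPKM in MZ and 48.5 ± 3.47 RPKM in FO, and it was lower in MZ than in T2 (-0.58) and in FO (-0.52). The PARP partners Parp9 and Dtx3l, a ubiquitin ligase, are neighbours whose exons overlap. Parp9 averaged 23.2 ± 2.74 RPKM in T1, 20.9 ± 2.84 RPKM in T2, 19.5 ± 1.83 RPKM in MZ and 16.9 ± 1.64 RPKM in FO. Dtx3l averaged 24 ± 4.66 RPKM in T1, 21.2 ± 4.32 RPKM in T2, 20.5 ± 2.98 RPKM in MZ and 18.8 ± 1.90 RPKM in FO. Both had their highest mean in T1 and their lowest in FO. Ifi35 averaged 32.2 ± 3.49 RPKM in T1, 28.9 ± 4.07 RPKM in T2, 28 ± 2.24 RPKM in MZ and 28.8 ± 1.99 RPKM in FO and did not pass in any comparison of subsets. Rtp4 averaged 17.2 ± 6.66 RPKM in T1, 13.1 ± 3.498 RPKM in T2, 14.8 ± 2.94 RPKM in MZ and 9.76 ± 2.62 RPKM in FO. Stat2 averaged 38.1 ± 5.62 RPKM in T1, 43 ± 1.94 RPKM in T2, 56.3 ± 2.78 RPKM in MZ and 53.2 ± 2.81 RPKM in FO, with its lowest mean in T1.

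Macrophage and monocyte markers summed to 126.5 and 135 RPKM in KO MZ and to 93.1 and 109.8 RPKM in WT MZ libraries, against 21.1 and 32.4 RPKM in KO FO and 16.5 and 25.4 RPKM in WT FO libraries. The sums were 59.0 and 112.0 RPKM in KO T2 and 66.4 and 88.3 RPKM in WT T2 libraries. Most of the sum in MZ was Mpeg1, at 72.4 to 107.8 RPKM. The defining marker Csf1r had 1.30 and 1.83 RPKM in KO MZ, against 0.928 and 1.16 RPKM in WT MZ, and 1.70 and 4.85 RPKM in KO T2, against 3.0 and 4.24 RPKM in WT T2, with overlap between the MZ and the T2 libraries. Its FO values were 0.110 and 0.661 RPKM in KO, against 0.202 and 0.707 RPKM in WT, below every MZ library. In MZ against FO, 10 of 11 tested macrophage and monocyte markers were above 0 (median 1.01), 3 passed and were higher and 1 passed and was lower, while in MZ against T2 3 of 11 were above 0 (median -1.30). The part of these markers in the subset differences was not tested.

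The rest of the interferon pathway was looked at in lists of ligands, receptors, kinases, regulatory factors, adaptors and negative regulators, 59 genes of which 40 were tested. The 16 type I interferon genes held 23 reads over all 16 libraries, 11 of them were at 0 in every library, and the highest value was 0.276 RPKM (Ifnk, 4 reads or fewer in a library). At this depth, type I interferon transcripts were near the limit of detection. Ifng, the type II interferon, had the highest mean of the other ligands and was highest in T1. Ifng had 4.38 and 4.53 RPKM in KO T1, against 5.81 and 3.69 RPKM in WT T1, and 1.17 and 0.825 RPKM in KO T2, against 1.29 and 1.22 RPKM in WT T2. For Ifng the MZ values were 0.0614 and 0.424 RPKM in KO, against 0.0916 and 0.307 RPKM in WT, and the FO values were 0.0371 and 0.501 RPKM in KO, against 0.283 and 0.106 RPKM in WT. It was called lower in T2 (-1.64), FO (-2.83) and MZ (-2.84) than in T1.

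Of the 6 receptor genes, 0 passed between KO and WT in any subset, and in MZ against T2 0 were higher and 5 were lower. Ifnar1, the receptor chain with the highest mean, was lowest in MZ. Ifnar1 had 43.3 and 36.9 RPKM in KO T1, against 42.7 and 39.9 RPKM in WT T1, and 41.8 and 37.3 RPKM in KO T2, against 40.5 and 40.3 RPKM in WT T2. For Ifnar1 the MZ values were 19.3 and 20.7 RPKM in KO, against 18.8 and 21.3 RPKM in WT, and the FO values were 33.1 and 34.2 RPKM in KO, against 33 and 35.5 RPKM in WT. It was called in MZ against T1 (-1.004, adjusted p = 9.89e-07 by limma). Ifnlr1, the chain for type III interferons, was called lower in MZ than in FO (-1.63) and higher in FO than in T1 (1.28).

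Of the 6 kinase and ISGF3 genes, 0 passed between KO and WT, and 2 were higher and 3 lower in MZ against T2. Jak1 had the highest mean. Jak1 had 56.8 and 56.7 RPKM in KO T1, against 59.3 and 55.1 RPKM in WT T1, and 101 and 109 RPKM in KO T2, against 95.3 and 101 RPKM in WT T2. For Jak1 the MZ values were 70.1 and 71 RPKM in KO, against 65.4 and 71 RPKM in WT, and the FO values were 114 and 121 RPKM in KO, against 113 and 119 RPKM in WT. It was called higher in FO than in T1 (1.03). Stat2, a member as well as a part of ISGF3, passed and was higher in MZ than in T2 (0.39) and in T1 (0.57). Of 7 interferon regulatory factors, 0 passed between KO and WT, and 1 was higher and 3 were lower in MZ against T2. Irf4, which is also a plasma cell gene, had the highest mean, 111.9 RPKM, and ranged from 53.5 to 208 RPKM over the libraries, so replicates differed widely.

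Among 10 tested sensor adaptors and kinases, 8 passed and were higher in MZ than in T2 and 1 was lower, and 0 passed between KO and WT. Unc93b1, the chaperone of endosomal Toll-like receptors, had the highest mean, 339 RPKM. Tlr3, the receptor for double-stranded RNA, was higher in every MZ library than in any other library. Tlr3 had 0.428 and 0.425 RPKM in KO T1, against 0.417 and 0.0491 RPKM in WT T1, and 1.16 and 1.29 RPKM in KO T2, against 1.09 and 1.62 RPKM in WT T2. For Tlr3 the MZ values were 40.03 and 26.3 RPKM in KO, against 25.8 and 24 RPKM in WT, and the FO values were 1.92 and 1.88 RPKM in KO, against 1.19 and 1.80 RPKM in WT. Its difference was 4.02 ± 0.19 (SE; adjusted p = 1.03e-07 by limma) in MZ against T2, and Ikbke (2.32), Ticam1 (1.23), the adaptor of Tlr3, and Tlr7 (1.05) were called as well. Of 10 negative regulators, 0 passed between KO and WT, and 2 were higher and 2 lower in MZ against T2. Ptpn6, a phosphatase, had the highest mean, 350.2 RPKM. Socs3, an inhibitor of receptor signalling, was called higher in T2 (1.69), FO (1.97) and MZ (2.04) than in T1. Irak1 and Traf6 are named because they are known targets of miR-146a. Irak1 was between 31.9 and 62.5 RPKM, with a KO against WT difference over the subsets of 0.06 ± 0.04 (SE; adjusted p = 0.697 by limma), and Traf6 had -0.00339 ± 0.07 (SE; adjusted p = 0.994 by limma).

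A further 58 tested interferon-stimulated genes that are not members were looked at in the same way. In KO against WT, 51 were above 0 in T1 (median 0.20), 47 in T2 (median 0.10), 49 in MZ (median 0.12) and 52 in FO (median 0.14). Over the subsets 53 were above 0 (median 0.13), and 1 passed. It is Irgm1, an immunity-related GTPase gene named here after its values were seen, with a difference of 0.54 ± 0.06 (SE; adjusted p = 0.00408 by limma). Irgm1 had 27.3 and 24.1 RPKM in KO T1, against 21.2 and 17.5 RPKM in WT T1, and 26.7 and 23.2 RPKM in KO T2, against 18.5 and 17.9 RPKM in WT T2. For Irgm1 the MZ values were 33.5 and 32.1 RPKM in KO, against 20.5 and 22.6 RPKM in WT, and the FO values were 25.4 and 22.6 RPKM in KO, against 13.6 and 15.6 RPKM in WT. No library of Irgm1 overlapped between the genotypes within a subset. The 40 tested pathway genes had a median of 0.03 over the subsets, with 24 above 0, so their values lay near those of all tested genes.

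Of the 39 tested members, 6 had both KO libraries above both WT libraries in all 4 subsets (Gbp2, Gbp6, Ifit1, Isg15, Oas2 and Oasl2), which was so for 0.544% of all tested genes. A further 13 members did so in 3 subsets, 11 in 2, 8 in 1 and 1 in 0, beside 2.69%, 10.2%, 27.4% and 59.2% of all tested genes. Across the 16 libraries the members varied together to a moderate degree, with a median Pearson's r of 0.41 over 741 pairs, of which 74.8% were above 0. After the mean of each group was taken off, the median was 0.28 and 69.0% were above 0. These values are descriptions, since the members share the libraries and their depth.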

How the data were processed

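RNA of sorted B-cells was sequenced as single-end reads of 100 bases with a kit that does not mark strand. The authors removed low-quality and adapter reads, aligned the rest to the mouse genome (mm10, GRCm38) with TopHat (2 mismatches at most), discarded reads that aligned to several places, and deposited RPKM values per gene, made with their own scripts. They ran DESeq and edgeR on read counts, which were not used here. No tool version was found in the sources used here.

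The 39 members of the 41 that were tested belong to 12507 genes with a group mean above 1 RPKM. All 12507 were fitted together in 1 model of the 8 groups with limma 3.58.1 (trended variance, R 4.3.3) on log2(RPKM + 0.5), so that differences of low genes are understated, and p-values were adjusted by Benjamini-Hochberg within each comparison. Passed means an adjusted p under 0.05, and called adds a log2 difference beyond 1. The code was tested on simulated data. Whole reads were recovered from the steps of the RPKM values, for all 23194 genes above 0 within 0.01 reads, and used for limma-voom as an alternative. Totals of 9003343 to 26386684 reads limit low genes most. Alternatives were other pseudocounts, filters, scalings, a replicate block and leaving out each library.

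The members, gene lists and tests were chosen with earlier results of these data known. Values in every library are given for called members (at most 6 per direction and comparison), the 4 smallest p where none was called, the highest member of each role and the members under the filter. From the pathway lists the highest gene and called genes are named. Motifs and sequences come from RefSeq (GRCm38.p6) and GENCODE M21. Tables were made with Python 3.11.15 and pandas 2.3.3.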

Additional observations from a re-analysis of the deposited data

How the results depend on the processing

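For KO against WT across subsets, 5 members passed. The number was 3 with no filter on low values (Oas2, Oasl2 and Ifi44), 1 (Oas2) with median-ratio scaling and 1 (Oas2) with quantile normalization, and 3 (Gbp6, Oas2 and Oasl2) with limma-voom on the recovered reads. It was 0 without the T1 libraries and 2 without the KO replicate 1 libraries, both chosen after seeing the data, and 0 to 3 when each library was left out in turn. For FO against T2, 11 members passed. The number was 5 with no filter on low values, 1 (Mx2) when only the libraries of the groups compared were fitted, 0 without the KO replicate 1 libraries and 0 to 14 when each library was left out. The cause was not tested. The other counts between subsets stayed within 1.5 times, with ranges over the left-out libraries of 10 to 13 in T2 against T1, 21 to 25 in MZ against T2, 23 to 28 in MZ against FO, 18 to 24 in FO against T1 and 25 to 29 in MZ against T1. Within a subset, 0 members passed between KO and WT under every alternative run, and the median of the members stayed above 0.

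The ISRE was in 10 of 31 promoters in its longer form, against 16 for the core, and the miR-146a match was in 1 member as the full 8 bases, against 9 for any form, by construction. Ifit3 in MZ against T2 (0.98) missed the fold criterion with a pseudocount of 1 or median-ratio scaling, as did Rsad2 in FO against T1 (-0.97) with a pseudocount of 1 and Ddx58 in FO against T1 and in MZ against T1 with quantile normalization.

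With the replicate number as a block, 4 members passed across subsets (Gbp6, Ifit3, Oas1a and Oasl2) and 14 in FO against T2. The labels do not say what a number stands for, and the numbers were not taken as pairs of KO and WT libraries. The correlation of same-numbered KO and WT libraries, as deviations from the group means, was 0.30 among T1, 0.16 among T2, -0.23 among MZ and -0.16 among FO libraries. Between subsets of a genotype it was 0.19 to 0.44 in KO and 0.08 to 0.45 in WT.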
